A study of Homo sapiens with 4 samples.

Results

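The genes described here encode the transforming growth factor beta (TGF-beta) and bone morphogenetic protein (BMP) ligands, their receptors, the SMAD proteins and the factors that restrain or respond to them. They were chosen by gene name alone, from the BMP, GDF, TGFB and INH ligands, the ACVR, BMPR and TGFBR receptors, the SMADs and SMURFs, ID1 to ID4, LTBP1 to LTBP4, and from secreted antagonists such as NOG, GREM1 and FST. RefSeq's gene table for GRCh38.p14 holds 68 such names, of which 64 were protein-coding and 4 were not. The names also took in BMP1, a metalloprotease, and BMP2K, a kinase outside the family, and neither was the gene nearest to any summit. Of the 68 names, 42 were nearest to at least 1 TBX3 summit in either peak list, 36 in replicate 1 and 41 in replicate 2.

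Binding of TBX3, a T-box transcription factor, was measured by chromatin immunoprecipitation and sequencing (ChIP-seq) in 501mel, an established human melanoma line. The 2 ChIP samples carried TBX3-3xHA, that is TBX3 with an HA peptide tag, and were precipitated with the 12CA5 antibody against HA. The 2 input samples of the same line were not analysed here. The labels name no further treatment, time or allele, and do not say whether the replicates came from separate cultures, so the agreement between them may be technical. The lists hold no expression values, so the identity of the cells was not checked against marker genes.

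Each list gave a position, a score and the nearest transcription start site (TSS) for every summit, the single base where a peak was highest. For genes with several starts, that TSS can lie inside the gene. The genes chosen here held 99 of the 32479 summits of replicate 1 and 124 of the 40494 summits of replicate 2. A summit of one list and a summit of the other were called a pair when each was nearest to the other and they lay within 200 bp. Scores have no stated scale, so they are given with the percentile they reach in their own list. The sequencing depth is unknown, and a site missing from a list cannot be told apart from one below its detection limit.

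As background, TGF-beta family ligands are dimers that bring type I and type II receptor kinases together. TGF-beta and activin receptors act mainly through SMAD2 and SMAD3, BMP receptors through SMAD1, SMAD5 and SMAD9, and SMAD4 joins both. SMAD6, SMAD7, SMURF1 and SMURF2 damp the signal, secreted proteins such as noggin trap BMPs, and the ID genes are classical BMP targets. In the skin, TGF-beta restrains melanocyte growth and pigment production, and in embryonic tissues BMPs are known inducers of TBX2 and TBX3.

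TBX3 summits recurred near many pathway genes, but mostly at a distance from their start sites. A pair was nearest to 33 of the 64 protein-coding members (51.6%, 95% Wilson interval 39.6% to 63.4%), beside 28.6% of all 19974 protein-coding genes on chromosomes 1 to 22 and X. Within 10 kb of the deposited TSS a pair was found at 8 members (12.5%, 6.47% to 22.8%), beside 10.1% of all protein-coding genes. By this naming the share close to the start was near the background. Within 1 kb the share was 1.56%, beside 2.99%, within 5 kb it was 6.25%, beside 6.04%, and within 50 kb it was 32.8%, beside 22.9%. Counting pairs within 10 kb of any RefSeq start, a choice made after seeing the data, gave 22.2% of 54 members (13.2% to 34.9%), beside 12.8%. The share at any distance also depends on how much sequence has the gene as its nearest. The stretch between the neighbouring protein-coding genes had a median of 179798 bp for the members and 98224 bp for all protein-coding genes. These stretches, which overlap between neighbouring genes and may span centromeres, held 8.55 pairs outside satellites per Mb for the members and 5.94 per Mb over all protein-coding genes. Counted by gene span instead, 17 members held a pair (26.6%, 17.3% to 38.5%), beside 20.9% of all protein-coding genes, and the density was 8.03 pairs per Mb of member spans and 7.35 per Mb over all of them.

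**Figure D1:**
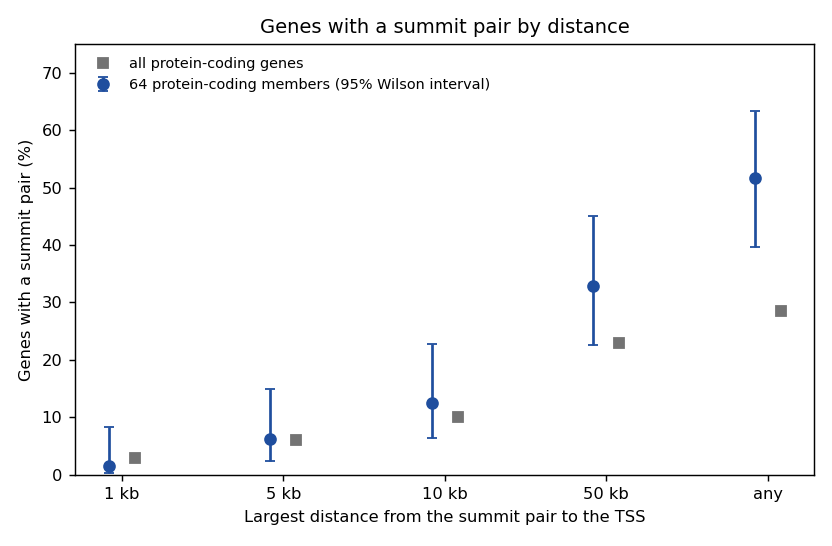
Percent of genes (vertical axis) with a summit pair no farther from the TSS than the distance on the horizontal axis, for the 64 protein-coding members (circles, bars are 95% Wilson intervals) and all protein-coding genes (squares). The members lie at 12.5% against 10.1% at 10 kb and at 51.6% against 28.6% at any distance.

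By the deposited nearest gene, the 8 members with a pair within 10 kb were 4 ligands, 3 receptors and 1 latent TGF-beta binding protein. None was a SMAD, a SMURF, an antagonist or an ID gene, but these groups are small. Among all protein-coding genes, 10.1% had such a pair. Measured from RefSeq starts, ID2 and SMAD3 also had one, as described below. LTBP1, which tethers latent TGF-beta to the extracellular matrix, had the pair closest to a start. Its summits lay on chromosome 2 at 33134402 in replicate 1 and 33134466 in replicate 2, in sequence annotated as promoter, 195 bp and 131 bp upstream of a start inside the gene. The score ranked 7729 in replicate 1 (percentile 76.0) and 5492 in replicate 2 (percentile 86.4). Both summits stood above the median of their lists. The 30 bases around each are shown because this was the only pair of the set that the deposited annotation placed at a promoter of the named gene, with the summit base in capitals, on the plus strand, from the RefSeq promoter windows of GRCh38.p14. Their windows belonged to different starts, 33 bases from the replicate 1 summit and 130 bases from that of replicate 2.
LTBP1, replicate 1, chr2:33134387-33134416: caccgctaggtgcacGgccaacccctttgc
LTBP1, replicate 2, chr2:33134451-33134480: tgtcgtgccctcggtAttgctctttgtctg

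BMPR2, the type II receptor for BMPs, had a pair just upstream of its start. The summits were at 202375211 and 202375217 on chromosome 2, 1116 bp and 1110 bp upstream of the TSS. The scores of 95.3 in replicate 1 and 186.4 in replicate 2 reached percentiles of 93.3 and 96.5. Both replicates thus placed the site in the top 10.0% of summits, the top score decile.

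BMP8B and BMP5, both BMP ligands, had pairs in their first introns. At BMP8B the summits at 39785969 and 39785940 on chromosome 1 lay 2892 bp and 2921 bp into the gene, in intron 1 of 6, with scores of 86.8 (percentile 92.4) and 139.4 (percentile 94.6). At BMP5 the summits at 55868992 and 55869014 on chromosome 6 lay 6598 bp and 6576 bp into the gene, in intron 1 of 5. Their scores were 114.1 in replicate 1 (percentile 95.02) and 248.3 in replicate 2 (percentile 97.9). These sites and the BMPR2 site were the highest ranked of the 8, and all 3 were in the top decile of both lists.

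The other 4 close pairs ranked lower. BMPR1B, a type I BMP receptor, had summits 7271 bp and 7227 bp upstream of an internal start, in intron 1 of 10, with percentiles of 64.9 and 83.9. ACVR1, a type I receptor of BMPs and activins, had a pair in intron 1 of 11, 7373 bp and 7301 bp from a start inside the gene span. Its percentile was 41.0 in replicate 1 and only 3.48 in replicate 2. GDF11, a ligand related to myostatin, had summits 4992 bp and 5013 bp upstream, at percentiles of 48.0 and 36.6. BMP10, a heart-expressed ligand, had summits 5724 bp and 5786 bp upstream, at percentiles of 27.2 and 51.9. The pairs of ACVR1 and GDF11 were thus below the median of both lists, and that of BMP10 was below it in replicate 1 alone.

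**Figure D2:**
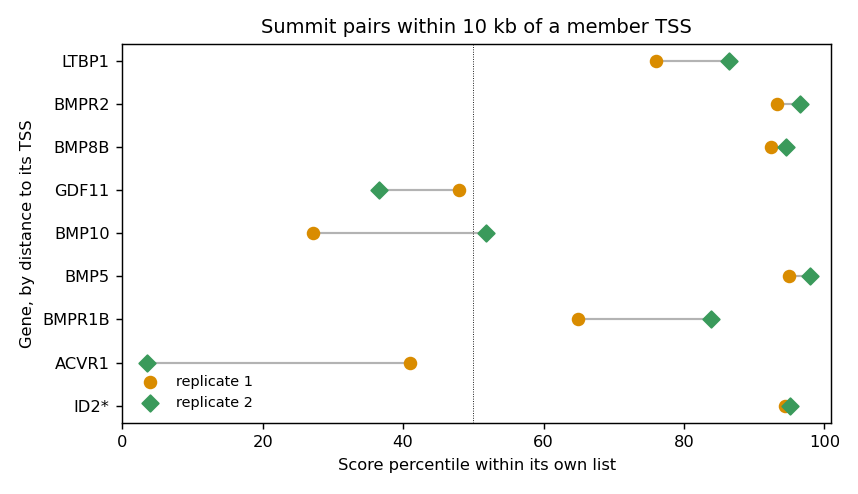
Score percentile within its own list (horizontal axis) of both summits of each pair within 10 kb of a member TSS, ordered by distance, circles for replicate 1, diamonds for replicate 2 and a dotted line at the median of a list. BMPR2, BMP8B and BMP5 lie above the 90th percentile in both lists, and ACVR1 falls to 3.48 in replicate 2; ID2*, placed last, is the pair at the ID2 promoter whose deposited nearest gene is ID2-AS1.

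The limit of 10 kb separated sites at similar distances. The next pairs outward belonged to TGFBR3 at 10106 bp, BMP2 at 10690 bp, GDF15 at 11471 bp and SMAD3 at 12157 bp. Those of TGFBR3 and SMAD3 were measured from starts inside the gene span. BMP2 is a main BMP ligand, and its pair fell in the last of its 3 exons, with scores of 36.3 (percentile 79.4) and 28.0 (percentile 69.7). GDF15, a stress-induced ligand that signals to the brain, had its pair upstream of the gene, at 18374489 and 18374542 on chromosome 19.

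ID2 was missed by the nearest-gene name. It encodes an inhibitor of basic helix-loop-helix factors and is a BMP target. A pair with summits at 8681529 and 8681544 on chromosome 2 was annotated as promoter of the ID2 transcript, but its deposited nearest gene was ID2-AS1, the antisense gene, at 332 bp and 317 bp. The summits were 527 bp and 512 bp upstream of the RefSeq start of ID2. The scores were 106.1 in replicate 1 (percentile 94.4) and 149.1 in replicate 2 (percentile 95.1), in the top decile of both lists. A weaker pair lay farther upstream, 2902 bp and 2844 bp from that start, at percentiles of 52.5 and 42.2. ID2 is therefore counted among the genes without a pair only because of how the nearest gene was assigned, and it was singled out after its values were seen.

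The same comparison with start sites was made for every member in the RefSeq promoter table. Of 54 protein-coding members there, 12 had a pair within 10 kb of any listed start (22.2%, 13.2% to 34.9%), beside 12.8% of all protein-coding genes in that table. The 4 genes added were ID2, GDF5, SMAD3 and TGFBR3. At GDF5, a joint-forming BMP ligand, the pair was credited to MIR1289-1, with percentiles of 33.0 and 42.4. At SMAD3 a pair 9039 bp and 8972 bp upstream was credited to LOC102723493. Across the gene spans, 7 pairs lay in or at a member but carried the name of another gene. The highest ranked of them after ID2 was in the RefSeq span of GREM1, a BMP antagonist, at 32743660 and 32743614 on chromosome 15, with percentiles of 86.8 and 89.6, under the name LOC100131315 and annotated as intergenic. Another was in intron 3 of 7 of TGFB2, which encodes a TGF-beta isoform, with scores of 26.0 and 72.1.

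Among ligands, 13 of 28 had a pair at some distance, 21 pairs in all, where 28.6% of all protein-coding genes had one. The strongest site of the whole gene set was near BMP10, with summits at 68832523 and 68832482 on chromosome 2, 38994 bp and 39035 bp beyond the start in intergenic sequence. Its score of 594.1 ranked 13 in replicate 1 and its score of 707.0 ranked 17 in replicate 2. BMP10 had 5 pairs in all, and a second of them, 42052 bp from the start, was also in the top decile of both lists. No summit lay inside the BMP10 gene span itself.

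BMP4, the ligand that patterns much of the embryo, had 4 pairs, all between 190602 bp and 215301 bp upstream in replicate 1. Their percentiles ran from 0.910 to 70.3 in replicate 1 and from 46.9 to 87.7 in replicate 2. BMP6 had a pair 20464 bp upstream in replicate 1 in the top decile of both lists, with scores of 98.9 and 201.2. BMP15, GDF10, BMP8A, INHBA and TGFB3 had 1 pair each, from 25691 bp to 186197 bp from the start. Those near BMP8A and TGFB3 lay inside other genes, MACF1 and TTLL5. No summit in either list named TGFB1, TGFB2, BMP3, GDF1, GDF2, GDF3, GDF5, GDF6, GDF9, INHBB, INHBC or INHBE as nearest.

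Latent TGF-beta binding proteins were represented by LTBP1 and LTBP2. LTBP1 was the gene nearest to 5 pairs, all inside its span of 452557 bp. The span held 6 pairs, with the other credited to MIR4430. The highest ranked was in intron 14 of 28, with summits at 33275924 and 33275923 on chromosome 2, just 1 bp apart. Its scores were 253.0 in replicate 1, rank 345, and 341.1 in replicate 2, rank 411. This was the second strongest site of the set by summed ranks, and it lay 141327 bp from a start inside the gene. LTBP2 had 1 pair in intron 3 of 35, in a MIR repeat, and LTBP3 and LTBP4 had no summit.

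Receptors had pairs at 7 of 12 genes, 16 pairs in all, where 28.6% of all protein-coding genes had one at any distance. BMPR1B had 6, the most of any receptor, but only 3 of them were inside its own span, and the other 3 were in UNC5C, a netrin receptor gene downstream. The highest ranked of the 6 was in exon 8 of 16 of UNC5C, with percentiles of 88.2 and 92.7. It lay 128506 bp from a start inside BMPR1B, and farther from the first start of the gene. TGFBR3, the co-receptor betaglycan, had 4 pairs in introns 2 and 4, the highest ranked with scores of 75.3 (percentile 90.8) and 108.2 (percentile 92.2). Its span held 5 pairs, with the other credited to CDC7. TGFBR2, the type II TGF-beta receptor, had 2 pairs within its introns, at 58620 bp and 82938 bp from the start. ACVR1C and ACVR2A, receptors of activins and related ligands, had 1 pair each, 43446 bp and 88329 bp upstream, both in DNA transposons. TGFBR1, the type I partner of TGFBR2, had 3 summits in replicate 1 and 2 in replicate 2, and none of them paired. BMPR1A had 2 summits, both in replicate 2 alone. ACVR1B, ACVR2B and ACVRL1 had no summit in either list.

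**Figure D3:**
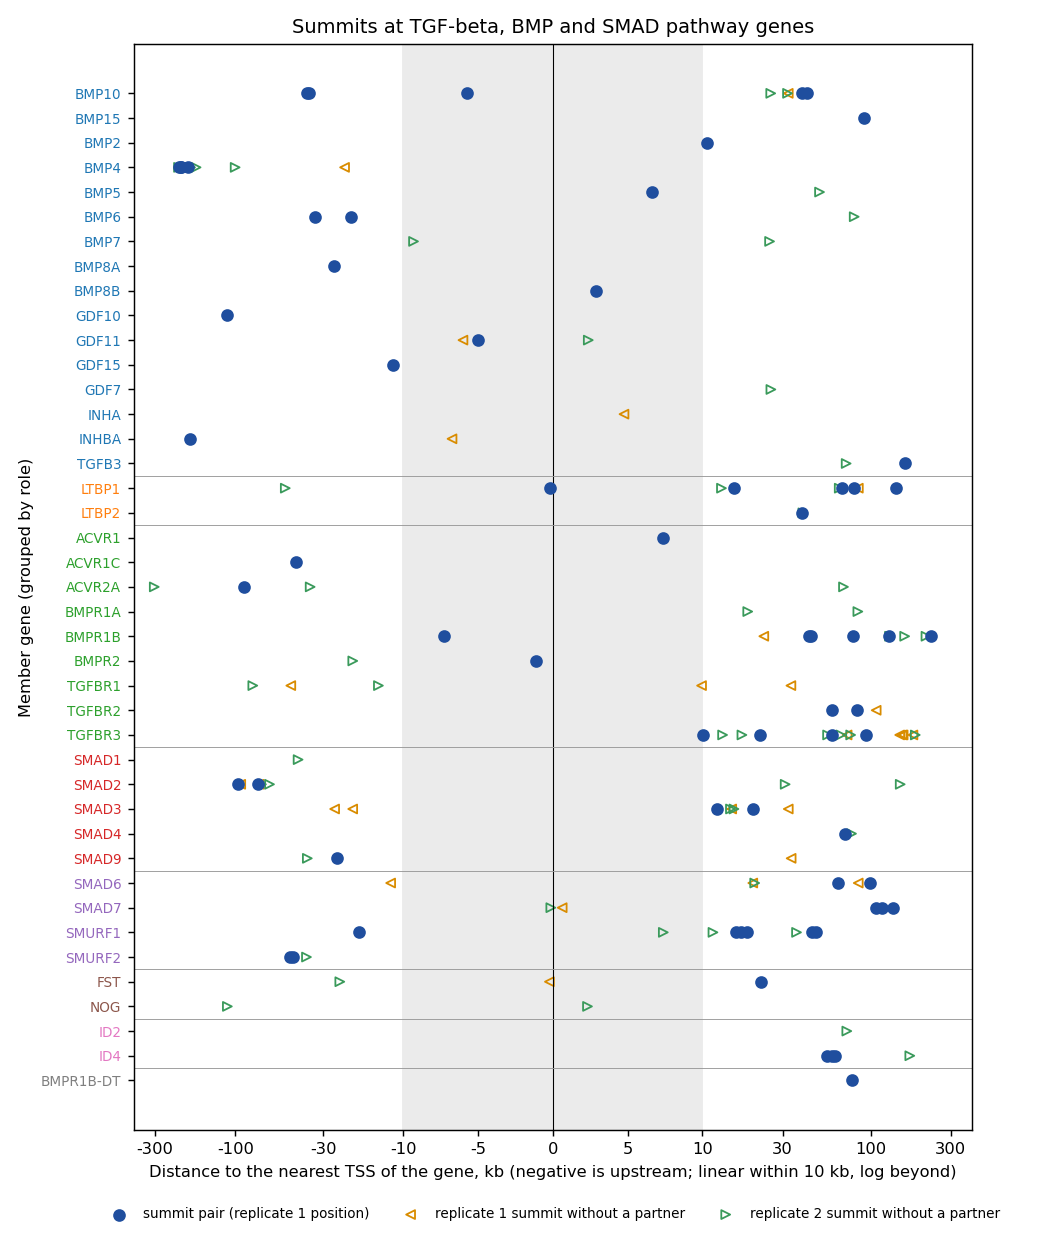
Distance in kb from each summit to the TSS of its nearest gene (horizontal axis, linear within 10 kb and logarithmic beyond) for the genes described here that had a summit, grouped by role. Filled circles are pairs and open triangles are summits of 1 list; the grey band marks 10 kb, which holds 8 pairs.

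Signalling SMADs had 6 pairs at 4 of 6 genes, where 28.6% of all protein-coding genes had one, but none within 10 kb of a deposited start. The median percentiles of these 6 pairs were 88.9 and 92.2, beside 63.6 and 70.5 for all pairs. Of 13 summits in replicate 1 and 15 in replicate 2, 6 in each had a partner, beside 69.9% and 56.1% of all summits. At SMAD2 the summits at 48004177 and 48004180 on chromosome 18 were 73031 bp upstream in replicate 1, with scores of 172.6 (rank 770) and 240.6 (rank 897). Another SMAD2 pair, 96420 bp upstream, fell in the 3′ UTR of ZBTB7C. At SMAD9, a BMP-responsive SMAD, the summits at 36945118 and 36945148 on chromosome 13 were 24846 bp upstream in replicate 1. Its scores were 144.2 (rank 1067) and 235.1 (rank 933), and the site was within a Tigger2 DNA transposon. SMAD4, the shared partner of all the signalling SMADs, had a pair 70826 bp from the start in the top decile of both lists. SMAD3 had 2 pairs in its introns, SMAD1 had 1 summit in replicate 2 alone and SMAD5 had none.

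**Figure D4:**
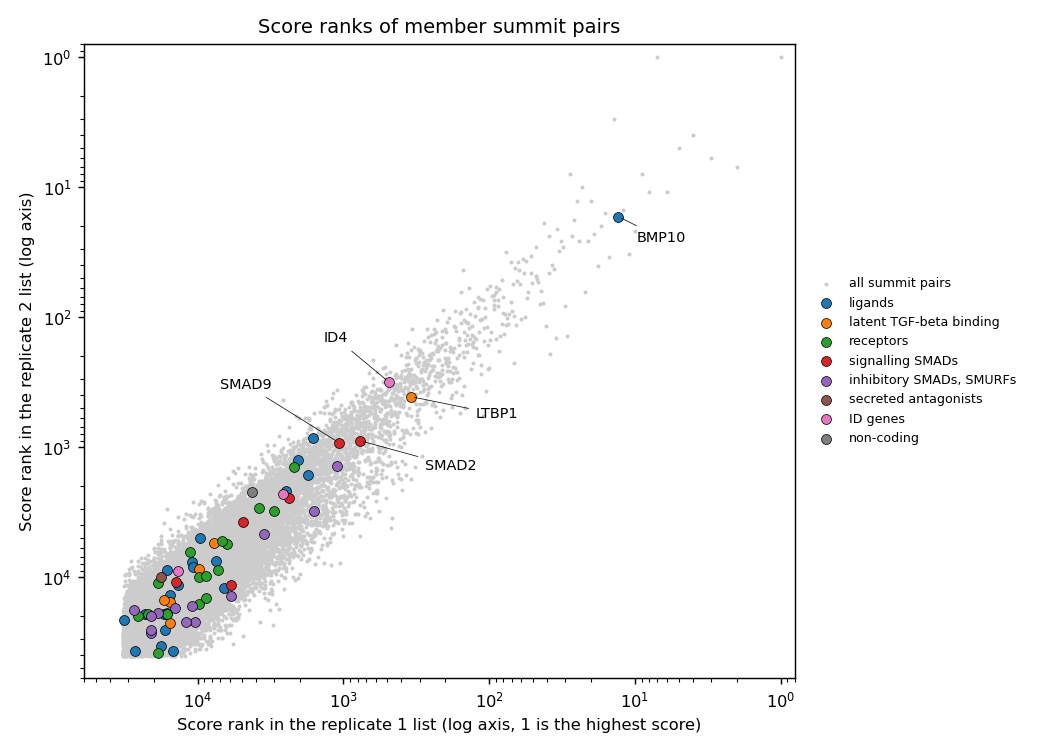
Score rank of each pair in the replicate 1 list (horizontal axis, logarithmic) against its rank in the replicate 2 list (vertical axis, logarithmic), members described here coloured by role over all pairs in grey. BMP10 at ranks 13 and 17 stands far above LTBP1, ID4, SMAD2 and SMAD9, the next 4 by summed rank.

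The inhibitory genes all had pairs, 13 over 4 genes, where 28.6% of all protein-coding genes had one at any distance. The group is small, and none of its pairs lay within 10 kb of a deposited start. SMURF1, a ubiquitin ligase that removes BMP-responsive SMADs, had 6, of which 5 were in intron 1 of 17 and 1 was 18373 bp upstream. The highest ranked, 17002 bp from the start in an MLT1I LTR element, had scores of 115.5 (percentile 95.1) and 108.7 (percentile 92.3). The other 5 ranged in percentile from 14.8 to 66.1 in replicate 1 and from 33.8 to 58.4 in replicate 2, so that 1 site of the 6 stood in the top decile of both lists. SMURF2 had 2 pairs, 45053 bp and 46927 bp upstream. SMAD6 had a pair 98921 bp from the start with scores of 141.1 (percentile 96.6) and 189.2 (percentile 96.6), and a weaker one in its own intron.

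SMAD7, the inhibitory SMAD that TGF-beta itself induces, had a promoter summit in each list that did not coincide. In replicate 1 the summit at 48950089 on chromosome 18 had a score of 6.53 (percentile 24.95), and in replicate 2 the summit at 48949472 had a score of 45.0 (percentile 79.8). They lay 617 bp apart, so they formed no pair. Each was annotated to a different start of the gene, 622 bp downstream of one and 139 bp upstream of the other. Its 3 pairs were 107926 bp to 135672 bp away, all within introns of the neighbouring gene CTIF. The 250 bases before the start nearest to the replicate 2 summit are shown because they hold 1 copy of GGTGTG, the core of the T-box element, in capitals.
SMAD7, minus strand, chr18:48949334-48949583: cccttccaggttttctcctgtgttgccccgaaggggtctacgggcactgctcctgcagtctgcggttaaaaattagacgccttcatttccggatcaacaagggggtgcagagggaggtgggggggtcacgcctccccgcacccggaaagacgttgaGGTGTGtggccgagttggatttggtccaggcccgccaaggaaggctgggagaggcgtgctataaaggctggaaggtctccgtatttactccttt
The summit is base 112 of this sequence and the copy starts at base 157, 45 bases closer to the start of the gene. These letters are common, as 16.8% of all 35116 promoter windows of 300 bases in the RefSeq table held GGTGTG on either strand.

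Promoter windows of the members were searched for the same letters, for the longer T-box element AGGTGTGA, which contains GGTGTG, and for SMAD and MITF motifs. The table held 92 windows for 56 of the 68 names. None held AGGTGTGA, beside 0.980% of all windows, and 13 held GGTGTG (14.1%). Those 13 windows belonged to 10 genes, SMAD7 among them. No window of LTBP1 or ID2, the genes with a pair annotated at their promoter, held GGTGTG. The SMAD box CAGACA was in 17 (18.5%, beside 16.9%), its palindrome GTCTAGAC in 1, that of SMAD6 (1.09%, beside 0.202%), and GGCGCC, a GC-rich SMAD element, in 21 (22.8%, beside 19.2%). CACGTG, the E-box that MITF binds, was in 7 (7.61%, beside 7.26%) and TGANTCA, the AP-1 site, in 6 (6.52%, beside 7.71%). All were counted on both strands, and the member shares lay near those of all windows, apart from the 2 rare motifs where 1 or 0 windows decide the value.

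Among secreted antagonists, FST had 1 pair, 22172 bp from the start in an LTR element, at percentiles of 43.8 and 75.1, and NOG had none. FST encodes follistatin, which binds activin. Its promoter held a summit in replicate 1 alone, 233 bp upstream, with a score of 5.94 (percentile 20.9). NOG encodes noggin, and its 2 summits were found in replicate 2 alone, one of them 2315 bp from the start at the end of the gene with a score of 18.1 (percentile 57.8).

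Close to the starts, 11 summits of 9 members had no partner, 6 in replicate 1 and 5 in replicate 2. Besides those of SMAD7, FST and NOG, they lay at GDF11 in each list, INHA, INHBA and TGFBR1 in replicate 1 and BMP7 and SMURF1 in replicate 2. The highest ranked of these others was at GDF11, 2367 bp from the start in intron 1 of 2, at percentile 68.3 of replicate 2. INHA, the inhibin alpha subunit, had its only summit in replicate 1, at percentile 5.52. As the nearest gene, GDF7, BMP7, BMPR1A, NOG, SMAD1 and ID2 were named in replicate 2 alone, although 1 summit of replicate 1 with another nearest gene lay inside the BMP7 span.

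ID4 was the only ID gene with a pair under its own name. Its 3 pairs clustered from 55098 bp to 61053 bp beyond the start on chromosome 6. The middle one, with summits at 19896535 and 19896559, had a score of 213.2 in replicate 1, rank 488, and 390.5 in replicate 2, rank 317. The one beside it, at 61053 bp, was also in the top decile of both lists. ID1 and ID3, the other classical BMP targets of this family, had no summit in either list. Among non-coding names, BMPR1B-DT had a pair with percentiles of 86.8 and 94.5, while ACVR2B-AS1, BMPR1AP1 and BMPR1AP2 had no summit.

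The 70 pairs of the gene set shared several features with pairs elsewhere. In replicate 1, 70.7% of the member summits had a partner (61.1% to 78.8%), beside 69.9% of all summits and 68.9% of those outside satellite repeats. In replicate 2 the share was 56.5% (47.7% to 64.9%), beside 56.1% and 54.4%. The summits of a pair were a median of 30 bp apart, beside 28 bp over all pairs, and for none of the 70 did the lists name different genes. By annotation, 34 pairs were in introns (48.6%, beside 39.7% of all pairs and 47.6% of those outside satellites) and 32 were intergenic (45.7%, beside 53.2% and 44.4%), while the LTBP1 pair was the 1 at a promoter (1.43%, beside 2.52% and 3.03%). Repeats held 14 (20.0%, 12.3% to 30.8%), beside 41.7% of all pairs and 30.1% of those outside satellites, and no member summit was in a satellite. By gene span, 28 pairs lay in the gene they were named for. By the deposited annotation, another 10 were in a different gene and the 32 others were intergenic.

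The median percentile was 68.7 in replicate 1 and 75.1 in replicate 2, beside 63.6 and 70.5 for all pairs and 63.6 and 72.2 for those outside satellites. With pairs within 50 bp the medians were 70.3 and 78.0, beside 69.6 and 75.3, and for summits outside repeats 68.2 and 75.4, beside 65.5 and 74.0, so the gap depended on these settings. In the top decile of both lists were 16 pairs (22.9%, 14.6% to 34.0%), beside 12.4% of all pairs and 13.6% of those outside satellites. Among them were 2 near BMP10, 2 near ID4 and those of BMP5, BMP6, BMP8B, BMPR2, TGFBR3, LTBP1, SMAD2, SMAD4, SMAD9, SMAD6 and SMURF1 already described. The top decile held 16 of the 99 member summits of replicate 1 (16.2%) and 19 of the 124 of replicate 2 (15.3%), beside 10.0% of all summits, and each of them had a partner. Summits without a partner ranked lower, at a median percentile of 14.7 over 29 in replicate 1 and 26.9 over 54 in replicate 2, beside 20.8 and 26.6 for all summits without a partner.

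Other genes of the pathway were taken from a separate list of 46. Of these, 11 had a pair within 10 kb (23.9%, 13.9% to 37.9%), beside 10.1% of all protein-coding genes, and 22 had one at any distance (47.8%, 34.1% to 61.9%), beside 28.6%. These shares also depend on the sequence around each gene and its number of starts, which were not compared for this list. The gene table behind the percents over all protein-coding genes held 45 of the 46. It lacked TDGF1, which is among the 11. The list was made with earlier results of these data known, and the genes described singly were chosen after their values were seen. TGIF1, a repressor of SMAD-dependent transcription, had a promoter pair 39 bp and 49 bp from the TSS with scores of 168.8 (rank 790) and 185.4 (rank 1449). NEDD4L, a ubiquitin ligase for activated SMAD2 and SMAD3, had 18 pairs, 6 of them within 10 kb of one of its starts. RGMB, a BMP co-receptor, had a promoter pair 252 bp and 258 bp from the TSS. ZFYVE9, which presents SMAD2 and SMAD3 to the receptor, had its single pair at ranks of 17 and 20, 18439 bp from the start. The others with a pair within 10 kb were TGFBI, TRIM33, ZFYVE16, USP15, TDGF1, NODAL, SOSTDC1 and DCN. SKI, SKIL, ENG, CHRD, PMEPA1 and MSTN were among those that no summit named as nearest.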

How the data were processed

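Lists of peak summits, 1 per TBX3-3xHA ChIP sample, were analysed. Per the file headers, the authors annotated summit files with annotatePeaks.pl against hg38. The submitters' processing notes name cutadapt 2.8, Bowtie2 2.3.5, MACS2 2.1.2, SAMtools 1.9 and FastQC 0.11.7. The control and threshold of the peak calls are not given in the sources used here. The deposited peak score has no stated scale and was used only within its own list. The deposited distances are signed base pairs.

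Summits were paired when mutually nearest within 200 bp, with gene and distance taken from replicate 1. The pairing code was run on simulated summits set far apart. That run checks the code alone, and not how well dense summits are paired. Python 3.11.15, pandas 2.3.3 and scipy 1.17.1 were used. Wilson intervals, at 95%, cover only counting error. With 1 ChIP condition no test was made, and members stand beside all genes or summits. Genes came from the RefSeq table of GRCh38.p14. Motifs around summits were not searched, since no genome sequence was used here. The members and lists were chosen with earlier results of these data known. Described in full are members with a pair within 10 kb, the 5 pairs of lowest summed rank, and the 3 members with most pairs, ties included. Alternatives covered pairing distance, peaks used, gene source, single replicates, distance and start sites. The values of 1 member are not reported here, though the counts over all members include it.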

Additional observations from a re-analysis of the deposited data

How the results depend on the processing

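Of 49 values under alternative settings, 31 were counted as the same and 18 as moved, by a wide limit. For genes with a pair within 10 kb, 12 beside 8 still counted as the same, and 13 beside 8 as moved. The cause was not tested where the setting does not itself remove summits. Member genes with a pair within 10 kb numbered 8, beside 10.1% of all protein-coding genes. They numbered 5 with pairs within 50 bp (beside 8.09%), 0 at the same base (0.170%), 5 with scores at or above the median (7.20%), 3 among the 5000 highest scores (2.52%), 1 within 1 kb (2.99%), 4 within 5 kb (6.04%) and 21 within 50 kb (22.9%). They numbered 12 without replicate 1 (15.5%) and 13 without replicate 2 (13.4%), when every summit of the remaining list counted. Genes with a pair at any distance numbered 34, non-coding names included (beside 28.6%), 0 at the same base (0.721%), 16 among the 5000 highest scores (9.24%) and 36 to 41 with a single list (34.1% to 38.4%). The share of member summits with a partner, in replicates 1 and 2, was 49.5% and 39.5% within 50 bp, 0% and 0% at the same base, 89.1% and 70.0% with scores at or above the median, and 95.2% and 95.2% among the 5000 highest. Beside those, all summits had 49.9% and 40.0%, 0.902% and 0.724%, 84.7% and 69.4%, and 80.3% and 80.3%. The member shares among the 5000 highest rest on few summits and carry no interval. The start sites of the promoter table gave 12 genes (12.8%). That setting, and those for ranks and the other pathway genes, were chosen after seeing the data. The search for T-box motifs around summits, within 50 bp or 200 bp, was not run. No paired analysis was possible because the input samples, which share the replicate numbers, were not analysed here and no test compared groups. Unknown depth limits every count.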
